A study of Mus musculus with 16 samples.

Results

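Zinc and manganese leave liver cells through exporters and enter through importers, and zinc is held inside by metallothioneins. Here 8 genes of this system were followed. They were Slc30a10 and Slc30a1 (exporters), Slc39a14, Slc39a8 and Slc39a4 (importers), Mt1 and Mt2 (metallothioneins) and Mtf1 (the zinc-sensing transcription factor). The members were chosen by symbol, with values of the same table already known, so their differences between groups are a description and the adjusted p-values only place each member among all genes. All 8 of 8 members were found among the 35275 gene IDs of the table, and all 8 were among the 11298 genes kept at an FPKM of at least 1 in at least 4 of 16 libraries. FPKM is a fragment count divided by the length of the gene and by the depth of the library, so levels can be set side by side between genes.

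The libraries came from total RNA of mouse liver, with n = 4 in each of 4 groups. WT mice carried an intact Zfp36l1 gene and LKO mice lacked it in the liver, and each genotype received either the control diet or a diet containing ethanol. The labels used here do not give the strain, sex or age, the driver of the deletion, the make-up of the diets or the feeding time, and do not say whether each library is 1 animal, so p-values measure the spread between these libraries. The study asked how Zfp36l1, whose protein binds AU-rich stretches of mRNA and speeds their decay, bears on alcoholic fatty liver.

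Recovered reads per library ran from 9890476 to 24768572. Zfp36l1 itself was 9.30 to 25.5 FPKM in the 8 WT libraries and 0.572 to 1.76 FPKM in the 8 LKO libraries, with a log2 difference of -2.77 on the control diet (adjusted p = 0.00148, limma) and -3.02 on ethanol (adjusted p = 0.000428, limma). The 5 hepatocyte markers (Alb, Apoa1, Apoc3, Ttr, Cps1) summed to 44460 FPKM or more in every library, and the 4 pancreas acinar markers to at most 1.45 FPKM. Library 2 of the WT ethanol group stood apart: it had the fewest reads, 22.5% mitochondrial reads against 3.64 to 6.97% elsewhere, an erythroid marker sum of 1914 FPKM against 264.5 FPKM at most in the others of its group, and a rank correlation of 0.664 to 0.721 with the other libraries, which correlated at 0.858 to 0.985 with each other. Results that rest on it are given with and without it.

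The ZnT family (Slc30) moves zinc out of the cytosol, and its member Slc30a10 has become known as a manganese exporter at the apical face of hepatocytes and enterocytes. The ZIP family (Slc39) moves metal into the cytosol: Slc39a14 and Slc39a8 carry both zinc and manganese, and loss of Slc30a10, Slc39a14 or Slc39a8 disturbs manganese handling in humans. Mtf1 binds metal response elements when cellular zinc is high and switches on metallothioneins and Slc30a1, while metallothioneins also respond to glucocorticoids and inflammatory cytokines.

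The promoters are shown because metal response elements are the known link between Mtf1, the metallothioneins and Slc30a1. The core was searched as TGCGCNC or TGCACNC on both strands, in RefSeq windows of 300 bases (250 before the transcription start and 50 after it, GRCm38.p6), which matched 6 members. Capitals mark the core matches in the 250 bases upstream, printed on the plus strand, for Mt1 (chr8:94178839-94179088), Mt2 (chr8:94172368-94172617), Slc30a10 (chr1:185454598-185454847) and Slc30a1 (chr1:191906531-191906780).
Mt1 promoter: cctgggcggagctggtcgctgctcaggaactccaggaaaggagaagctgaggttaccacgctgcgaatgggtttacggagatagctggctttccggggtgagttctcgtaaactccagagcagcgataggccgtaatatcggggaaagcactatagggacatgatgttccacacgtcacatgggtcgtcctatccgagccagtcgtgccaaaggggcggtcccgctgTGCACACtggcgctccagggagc
Mt2 promoter: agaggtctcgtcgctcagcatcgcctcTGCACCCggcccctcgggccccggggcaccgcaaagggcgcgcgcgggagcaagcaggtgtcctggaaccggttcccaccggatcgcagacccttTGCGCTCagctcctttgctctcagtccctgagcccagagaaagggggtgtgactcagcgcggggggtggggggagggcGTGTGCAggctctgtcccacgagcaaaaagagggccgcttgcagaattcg
Slc30a10 promoter: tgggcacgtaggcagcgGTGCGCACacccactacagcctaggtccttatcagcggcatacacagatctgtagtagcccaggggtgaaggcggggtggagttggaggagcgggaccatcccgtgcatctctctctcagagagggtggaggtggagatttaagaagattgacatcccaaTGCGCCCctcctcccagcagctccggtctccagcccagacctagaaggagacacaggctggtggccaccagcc
Slc30a1 promoter: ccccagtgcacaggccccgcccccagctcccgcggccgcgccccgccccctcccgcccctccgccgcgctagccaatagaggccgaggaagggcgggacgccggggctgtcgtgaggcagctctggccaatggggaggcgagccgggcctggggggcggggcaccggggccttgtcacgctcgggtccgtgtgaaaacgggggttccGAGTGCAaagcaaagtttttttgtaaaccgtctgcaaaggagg

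The whole 300-base window of Mt2 held 4 core matches, those of Mt1 and Slc30a10 held 3 each, and that of Slc30a1 held 2. In Slc30a10, 2 of the 3 matches overlap on opposite strands, at -233 and -232 from the start. Of the 3 matches of Mt1, 2 lie after the RefSeq start of the window, as do 1 of the 4 in Mt2 and 1 of the 2 in Slc30a1. A RefSeq start need not be the GENCODE gene start: the upstream bases of Mt2 end at 94172617 and its gene starts at 94172664. Which starts these livers use was not examined. Positions and counts hold for these windows only and may differ for the promoters in use. Slc39a8 had 1 match in 1 of its 2 windows, and Mtf1 had 0. Among all 32851 windows, 25.7% held at least 1 match, 7.11% at least 2, 1.97% at least 3 and 0.518% at least 4. A match is a string of letters and not a measured binding site.

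The 3′ untranslated regions were searched for TATTTAT, the AU-rich 7-mer that Zfp36-family proteins are known to bind, since both exporters carry it. Capitals mark the 7-mer, on the gene's plus strand of chromosome 1, with positions counted from the first base of the annotated region (GENCODE M21, GRCm38): 516 and 1032 in Slc30a10 and 1995 in Slc30a1.
Slc30a10 position 516: aacgtcagctTATTTATagcacttata
Slc30a10 position 1032: tattttaaagTATTTATtgcagttgcc
Slc30a1 position 1995: tttagagaatTATTTATttctttacaa
The other 6 members held 0 copies. At least 1 copy stood in 28.9% of the 10552 kept genes with an annotated region, and in 60.2% and 57.6% of the genes whose region was about as long as that of Slc30a10 (4207 bases) and Slc30a1 (3492 bases). For the members without a copy, the share among genes of like length was 68.7% for Mtf1, 54.3% for Slc39a14 and 33.6% for Slc39a8. It was 21.6% for Mt1, 6.15% for Slc39a4 (152 bases) and 4.46% for Mt2 (141 bases).

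**Figure D1:**
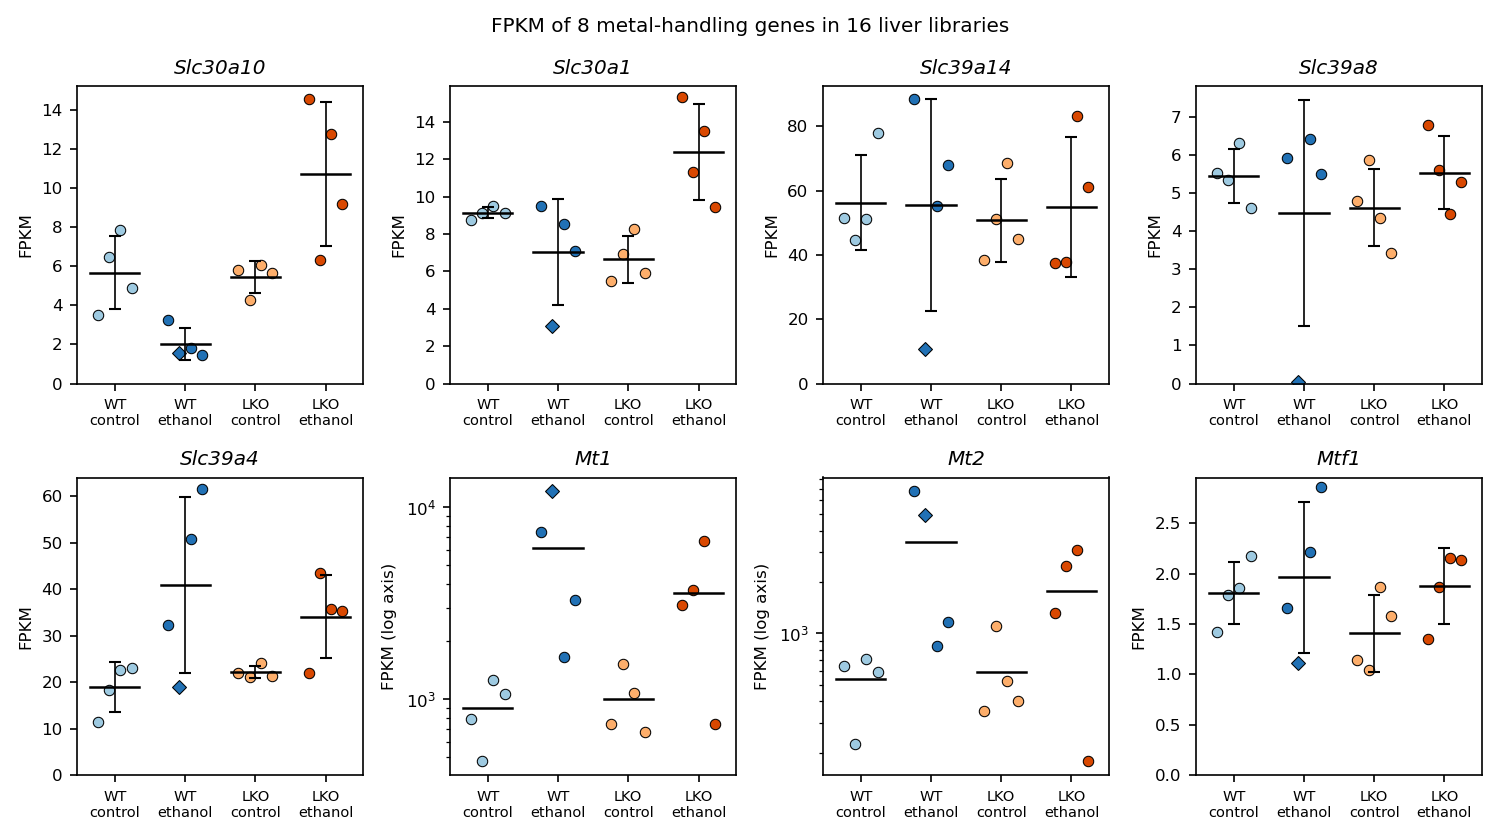
FPKM of the 8 members in the 16 libraries, 1 point per library, with the group mean as a line and the SD as a bar; Mt1 and Mt2 are on log axes, without the SD bar, and the diamond is WT ethanol library 2. Slc30a10 is lowest in the WT ethanol group, at 1.48 to 3.23 FPKM, and highest in the LKO ethanol group, at 6.30 to 14.5 FPKM.

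Slc30a10 (ENSMUSG00000026614, chr1:185454848-185468762, GRCm38) was the member that differed most between the genotypes on ethanol, but not on the control diet. On ethanol it was lower than on the control diet in WT livers and higher in LKO livers. In WT control livers it was 3.50, 6.46, 7.82 and 4.87 FPKM in libraries 1 to 4, and in WT ethanol livers 3.23, 1.58, 1.83 and 1.48 FPKM. All 4 WT ethanol libraries lay below all 4 WT control libraries. In LKO control livers it was 5.81, 4.25, 6.06 and 5.63 FPKM, and in LKO ethanol livers 14.5, 6.30, 12.7 and 9.19 FPKM. All 4 LKO ethanol libraries lay above all 4 LKO control libraries, so the same diet went with lower values in WT and higher values in LKO. The values rested on 91 to 1818 reads per library.

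The order of the Slc30a10 group means was LKO ethanol at 10.7 ± 3.68 FPKM (SD, n = 4), WT control at 5.66 ± 1.88, LKO control at 5.44 ± 0.814 and WT ethanol at 2.03 ± 0.815. The 2 control groups, neighbours in this order, overlapped, with a log2 difference of -0.01 (SE 0.27, adjusted p = 0.9997, limma). The sign of that difference flips to 0.12 under quantile normalization and 0.11 under median-of-ratios scaling. On ethanol, the LKO mean was 5.27-fold the WT mean, a log2 difference in FPKM + 1 of 1.93 (SE 0.27, adjusted p = 0.0107, limma). The groups did not overlap, and the gene ranked 2 by p-value among 11298 genes in this contrast. In WT the diet difference was -1.13 (SE 0.27, adjusted p = 0.0280, limma) and in LKO it was 0.81 (SE 0.27, adjusted p = 0.270, limma).

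The difference between those responses, LKO minus WT, was 1.94 (SE 0.39) for Slc30a10. It had the lowest p-value of all genes tested for such a difference, 0.000102 before adjustment (limma), but did not pass adjustment over all genes (adjusted p = 0.812, limma). No gene passed there (0.0% called, 362 genes at an unadjusted p under 0.05, limma). With libraries weighted by their fit to the group means, where the WT ethanol libraries 1 to 4 had weights of 0.278, 0.0418, 5 and 1.06, so that library 3 counted most in that group, it was 2.16 and passed (adjusted p = 0.00697, limma), as did 4.48% of all genes. It passed under none of the other settings and in none of the 16 fits that left out 1 library (adjusted p = 0.0656 to 0.980, limma). Averaged over the diets, the genotype difference was 0.96 (SE 0.19, adjusted p = 0.0559, limma). It passed on leaving out WT ethanol library 1 (1.04, adjusted p = 0.0233), WT ethanol library 2 (0.92, adjusted p = 0.0346) or LKO ethanol library 2 (1.06, adjusted p = 0.0247). It also passed with library weights (1.03, adjusted p = 0.000724, limma), where 34.1% of all genes did. Without WT ethanol library 2 it passed with a term for the library division described below (0.93, adjusted p = 0.0167, limma), as did 11.1% of all genes. With voom on recovered reads, also without that library, it was 1.15 (adjusted p = 0.0321, limma).

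Without WT ethanol library 2, Slc30a10 kept a genotype difference on ethanol of 1.86 (adjusted p = 0.0131, limma) and a WT diet difference of -1.06 (adjusted p = 0.0266, limma). Leaving out LKO ethanol library 1 took the genotype difference on ethanol to 1.77 (adjusted p = 0.0767, limma), which was not called. Under a pseudocount of 5 in place of 1 its size was 1.13 (adjusted p = 0.0141, limma). The WT diet call was lost without WT control library 2 (-1.06, adjusted p = 0.0901), WT control library 3 (-0.98, adjusted p = 0.0803), WT control library 4 (-1.17, adjusted p = 0.0685), WT ethanol library 3 (-1.11, adjusted p = 0.0541) or WT ethanol library 4 (-1.04, adjusted p = 0.0705). It was also lost when low genes were not removed (adjusted p = 0.0581, limma) and under a pseudocount of 5 (-0.59, adjusted p = 0.0590, limma).

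Within the groups, libraries 1 and 2 separated from libraries 3 and 4 along a first component that held 40% of the variance of 15 libraries, and no label names what divides them. Slc30a10 was higher in LKO ethanol than in WT ethanol on both sides of that division, by 1.33 on the log2 scale (2 against 1 library) and by 2.16 (2 against 2). The WT diet difference was -0.45 (1 against 2 libraries) and -1.44 (2 against 2). The LKO diet difference was 0.83 and 0.79. The 5 leukocyte markers (Cd3e, Cd79a, S100a8, S100a9, Ly6g), of which 2 were kept, summed to 1.62 to 7.02 FPKM in WT control, 2.57 to 9.58 in WT ethanol, 2.66 to 5.39 in LKO control and 3.05 to 18.6 in LKO ethanol livers, and their part in the result was not tested. Ly6g stayed under 0.1 FPKM in all groups but WT ethanol. Between WT ethanol and LKO ethanol, the sums ran from 75.2 to 239 against 45.8 to 276 FPKM for the 5 Kupffer cell markers, from 10.9 to 145 against 81.2 to 114 FPKM for the 4 stellate markers, and from 44460 to 73950 against 57480 to 73770 FPKM for the 5 hepatocyte markers, all of them kept. Without WT ethanol library 2 the WT ethanol range was 124 to 239 FPKM for the Kupffer cell and 109 to 145 FPKM for the stellate markers. These ranges overlapped, and their part in the result was not tested either. In bulk liver, a change in the share of a cell type and a change in RNA per cell cannot be told apart. The Slc30a10 locus overlaps the lincRNA Gm2061 on the opposite strand, and the strandedness of the counting is not given in the sources used here.

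Slc30a1 (ENSMUSG00000037434, chr1:191906767-191913247), the zinc exporter of the plasma membrane, was highest in LKO ethanol livers too. It was 8.78, 9.14, 9.51 and 9.13 FPKM in WT control livers and 5.49, 6.94, 8.27 and 5.90 FPKM in LKO control livers. The 4 LKO control libraries lay below the 4 WT control libraries, which were close together. It was 9.49, 3.07, 8.57 and 7.09 FPKM in WT ethanol livers and 15.3, 11.3, 13.5 and 9.43 FPKM in LKO ethanol livers. The LKO ethanol libraries lay above the LKO control libraries and overlapped the WT ethanol group by 1 library. The 3.07 FPKM came from WT ethanol library 2.

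The Slc30a1 means ran from 12.4 ± 2.56 FPKM (SD, n = 4) in LKO ethanol through 9.14 ± 0.298 in WT control and 7.05 ± 2.84 in WT ethanol to 6.65 ± 1.24 in LKO control. The LKO diet difference was 0.80 (SE 0.27, adjusted p = 0.268, limma) over 16 libraries and 0.80 (SE 0.16, adjusted p = 0.0175, limma) without WT ethanol library 2, which enters only the shared spread of this comparison. On the sides of the library division it was 0.98 and 0.62 (2 against 2 libraries each). On the control diet the genotype difference was -0.42 (SE 0.27, adjusted p = 0.9997, limma), and on ethanol it was 0.80 (SE 0.27, adjusted p = 0.278, limma), or 0.50 (adjusted p = 0.205, limma) without WT ethanol library 2. The WT diet difference was -0.42 (adjusted p = 0.409, limma), and -0.12 (adjusted p = 0.716, limma) without WT ethanol library 2. The difference between the diet responses was 1.22 (SE 0.38, unadjusted p = 0.00493, adjusted p = 0.927, limma), rank 33 among all genes. It was 0.92 (adjusted p = 0.968, limma) without WT ethanol library 2, and 0.95 (adjusted p = 0.0209, limma) with library weights. Slc30a1 overlaps the antisense gene 1700034H15Rik, whose reads cannot be set apart here.

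Slc30a1 and Slc30a10 had a Spearman rho of 0.67 over the 16 libraries and 0.61 over 15 without WT ethanol library 2. The points share library, depth and group. The 4 WT ethanol libraries had the 4 lowest values of Slc30a10, while 3 of them lay inside the range of the other groups in Slc30a1.

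**Figure D2:**
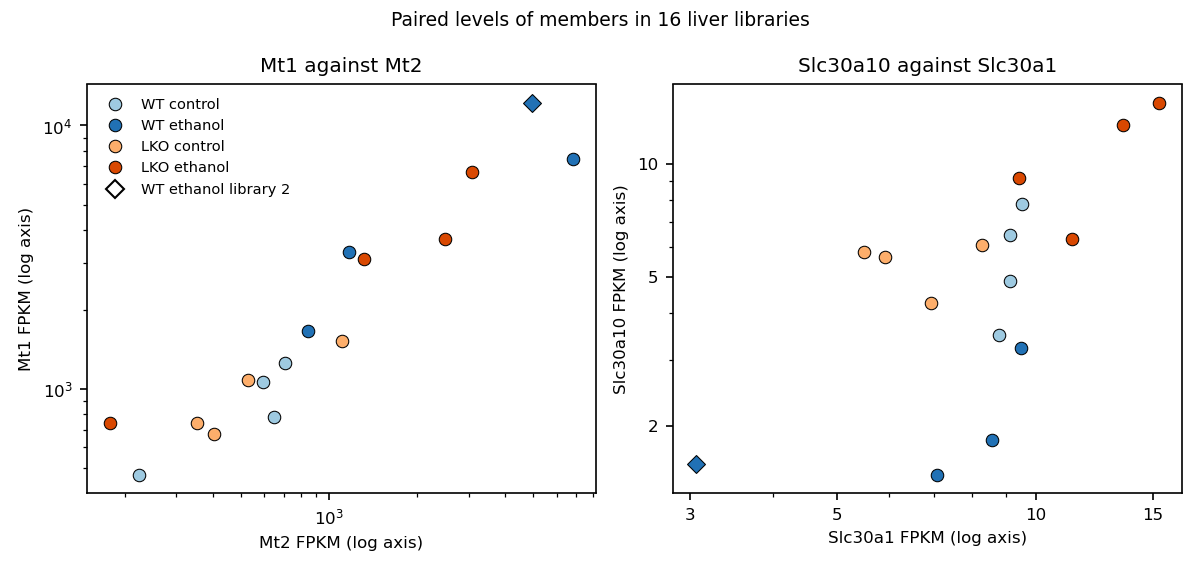
Mt1 against Mt2 (left) and Slc30a10 against Slc30a1 (right), FPKM on log axes, 1 point per library, coloured by group, with a diamond for WT ethanol library 2. Mt1 and Mt2 lie along 1 line over all groups (rho 0.96), and the 4 WT ethanol libraries lie at the bottom of the Slc30a10 axis.

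Slc39a14 (ENSMUSG00000022094, chr14:70303469-70351425), an importer of manganese, zinc and non-transferrin iron that is abundant in liver, had the highest mean of the 5 transporters in each group and did not separate the groups. It was 51.4, 44.5, 51.1 and 78.0 FPKM in WT control livers and 88.6, 10.6, 55.1 and 67.8 FPKM in WT ethanol livers. In LKO livers it was 38.3, 51.1, 68.6 and 44.8 FPKM on the control diet and 37.6, 37.9, 83.3 and 61.0 FPKM on ethanol. Each pair of groups overlapped, and the low 10.6 FPKM was WT ethanol library 2. The WT diet difference was -0.32 (SE 0.49, adjusted p = 0.755, limma) with that library and 0.33 (SE 0.29, adjusted p = 0.514, limma) without it. The LKO diet difference was 0.07 (SE 0.49, adjusted p = 0.9996, limma).

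Slc39a8 (ENSMUSG00000053897, chr3:135825279-135888572), the other importer of manganese and zinc, was lower than Slc39a14 in every library. It was 5.54, 5.34, 6.31 and 4.61 FPKM in WT control livers and 5.92, 0.0480, 6.42 and 5.51 FPKM in WT ethanol livers. The single low value, from 2 reads, was WT ethanol library 2, and of the other 3 in that group 2 lay inside the WT control range and 1 just above it. In LKO livers it was 4.80, 5.87, 4.35 and 3.43 FPKM on the control diet and 6.78, 5.61, 4.46 and 5.29 FPKM on ethanol. The groups overlapped in all 4 comparisons. The WT diet difference was -0.57 (SE 0.45, adjusted p = 0.512, limma) and 0.11 (SE 0.17, adjusted p = 0.730, limma) without that library.

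Slc39a4 (ENSMUSG00000063354, chr15:76612383-76617384), the zinc importer best known from the intestine, was higher on ethanol in most libraries of both genotypes. It was 11.5, 18.3, 22.6 and 23.1 FPKM in WT control livers and 32.3, 19.1, 50.9 and 61.6 FPKM in WT ethanol livers. Only WT ethanol library 2 lay inside the WT control range. In LKO livers it was 22.0, 21.1, 24.04 and 21.3 FPKM on the control diet and 21.9, 43.5, 35.8 and 35.3 FPKM on ethanol. Of the LKO ethanol libraries, library 1 lay inside the LKO control range and the other 3 above it.

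The WT ethanol mean of Slc39a4 was 2.17-fold the WT control mean, a log2 difference of 0.996 (SE 0.33, adjusted p = 0.103, limma), and the LKO diet difference was 0.57 (SE 0.33, adjusted p = 0.690, limma). Without WT ethanol library 2 the WT difference was 1.31 (SE 0.27, adjusted p = 0.00950, limma) and passed. It also passed with quantile normalization (1.04, adjusted p = 0.0198), median-of-ratios scaling (0.94, adjusted p = 0.0302) and library weights (1.51, adjusted p = 6.01e-05, limma). Without WT ethanol library 2 it passed with the division term (1.24, adjusted p = 0.00327, limma) and with voom (1.35, adjusted p = 0.00989, limma). Averaged over genotypes the diet difference was 0.78 (SE 0.24, adjusted p = 0.0526, limma). It passed without WT ethanol library 2 (0.94, adjusted p = 0.00287) and without LKO ethanol library 1 (0.88, adjusted p = 0.0392). Other settings where it passed were a pseudocount of 5 (0.685, adjusted p = 0.0464, limma) and quantile normalization (0.79, adjusted p = 0.00762, limma). So were median-of-ratios scaling (0.71, adjusted p = 0.0131, limma) and library weights (1.02, adjusted p = 0.000105, limma). The division term gave 0.905 (adjusted p = 0.000762, limma) and voom 0.97 (adjusted p = 0.00281, limma), both without WT ethanol library 2. On the sides of the library division the WT difference was 1.10 and 1.26 and the LKO difference 0.50 and 0.63. The genotypes overlapped on both diets, with differences of 0.26 on the control diet and -0.17 on ethanol. The latter was -0.48 (adjusted p = 0.358, limma) without WT ethanol library 2, and with library weights it was -0.67 and called (adjusted p = 0.0356, limma), where 30.7% of all genes were called.

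Mt1 (ENSMUSG00000031765, chr8:94179082-94180327), a small cysteine-rich protein that binds zinc, copper and cadmium, rose on ethanol in WT livers and over the genotypes together. It was 784, 472, 1257 and 1065 FPKM in WT control livers and 7452, 12160, 1656 and 3296 FPKM in WT ethanol livers. All WT ethanol libraries lay above all WT control libraries. In LKO livers it was 744, 1516, 1078 and 676 FPKM on the control diet and 3108, 3701, 6684 and 745 FPKM on ethanol. LKO ethanol libraries 1 to 3 lay above the LKO control range and library 4 inside it.

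The WT ethanol mean of Mt1 was 6.86-fold the WT control mean, a log2 difference of 2.49 (SE 0.63, adjusted p = 0.0344, limma). The LKO diet difference was 1.53 (SE 0.63, adjusted p = 0.443, limma) and 2.16 without LKO ethanol library 4 (adjusted p = 0.104, limma). Averaged over genotypes it was 2.01 (SE 0.44, adjusted p = 0.0105, limma), and this call held in each of the 16 fits that left out 1 library (1.78 to 2.32, adjusted p = 0.00182 to 0.0272). The difference between the responses, LKO minus WT, was -0.96 (SE 0.89, adjusted p = 0.927, limma), -0.50 without WT ethanol library 2 and -0.01 with library weights. The genotypes overlapped on the control diet (0.18, SE 0.63) and on ethanol (-0.78, SE 0.63). The difference on ethanol was -0.32 without WT ethanol library 2 and turned to 0.42 with library weights, and it was called in neither.

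The WT call of Mt1 was lost in 6 of the fits that left out 1 library: WT control library 1 (2.46, adjusted p = 0.0921), WT control library 2 (2.21, adjusted p = 0.1145), WT control library 4 (2.604, adjusted p = 0.0758), WT ethanol library 1 (2.27, adjusted p = 0.0532), WT ethanol library 2 (2.03, adjusted p = 0.0513) and WT ethanol library 4 (2.66, adjusted p = 0.0550). It was also lost without the filter on low genes (adjusted p = 0.102, limma) and with median-of-ratios scaling (2.44, adjusted p = 0.0605, limma). With library weights its size was 1.35 (adjusted p = 0.0385, limma). On the sides of the library division the WT difference was 3.61 (1 against 2 libraries) and 1.01 (2 against 2), and the LKO difference was 1.67 and 1.39.

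Mt2 (ENSMUSG00000031762, chr8:94172664-94173568), the neighbouring and closely related metallothionein, followed Mt1. It was 646, 224, 707 and 593 FPKM in WT control livers and 6815, 4924, 847 and 1168 FPKM in WT ethanol livers, and these groups did not overlap. In LKO livers it was 353, 1107, 526 and 404 FPKM on the control diet and 1320, 2488, 3084 and 178 FPKM on ethanol. LKO ethanol library 4 had the lowest Mt2 of all 16 libraries, and the other 3 lay above the LKO control range. The WT difference was 2.27 (SE 0.80, adjusted p = 0.121, limma), the LKO difference 1.11 (SE 0.80, adjusted p = 0.784, limma) and the mean over genotypes 1.69 (SE 0.57, adjusted p = 0.0783, limma). The LKO difference was 2.01 (adjusted p = 0.223, limma) without LKO ethanol library 4. The WT difference was 1.93 (adjusted p = 0.168, limma) without WT ethanol library 2 and 1.07 (adjusted p = 0.200, limma) with library weights. On the sides of the library division it was 4.16 (1 against 2 libraries) and 0.62 (2 against 2). The mean over genotypes passed without WT ethanol library 3 (1.94, adjusted p = 0.0455) or LKO ethanol library 4 (2.14, adjusted p = 0.00833), and with a term for the library division fitted without WT ethanol library 2 (1.58, adjusted p = 0.0475), where leaving out that library alone gave 1.52 (adjusted p = 0.0796).

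The ratio of Mt1 to Mt2 FPKM stayed between 1.09 and 4.18 in all libraries, and their Spearman rho was 0.96 over 16 libraries and 0.95 without WT ethanol library 2. Together they took 0.0380 to 0.107% of the reads in WT control, 0.137 to 0.930% in WT ethanol, 0.0589 to 0.143% in LKO control and 0.0501 to 0.532% in LKO ethanol livers. Mt1 ranked 50 to 126 among all genes by FPKM in WT control and 10 to 34 in WT ethanol livers. Its rank was 43 to 101 in LKO control and 8 to 77 in LKO ethanol livers. Mt1 and Mt2 are similar in sequence, so how their reads were divided is uncertain, and Mt2 overlaps the antisense gene Gm45774.

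Mtf1 (ENSMUSG00000028890, chr4:124802104-124849800), which encodes the factor itself, was low and did not separate the groups. It was 1.42, 1.79, 1.86 and 2.17 FPKM in WT control livers and 1.66, 1.11, 2.22 and 2.86 FPKM in WT ethanol livers. In LKO livers it was 1.14, 1.05, 1.87 and 1.58 FPKM on the control diet and 1.35, 1.87, 2.15 and 2.13 FPKM on ethanol. The ranges overlapped in every comparison, and the 16 values spanned 84 to 435 reads. The diet difference was 0.05 (SE 0.20, adjusted p = 0.918, limma) in WT and 0.26 (SE 0.20, adjusted p = 0.814, limma) in LKO. Mtf1 RNA had a Spearman rho of 0.09 with Mt1 and of 0.80 with Slc39a4 over the 16 libraries, and of 0.29 and 0.80 without WT ethanol library 2.

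**Figure D3:**
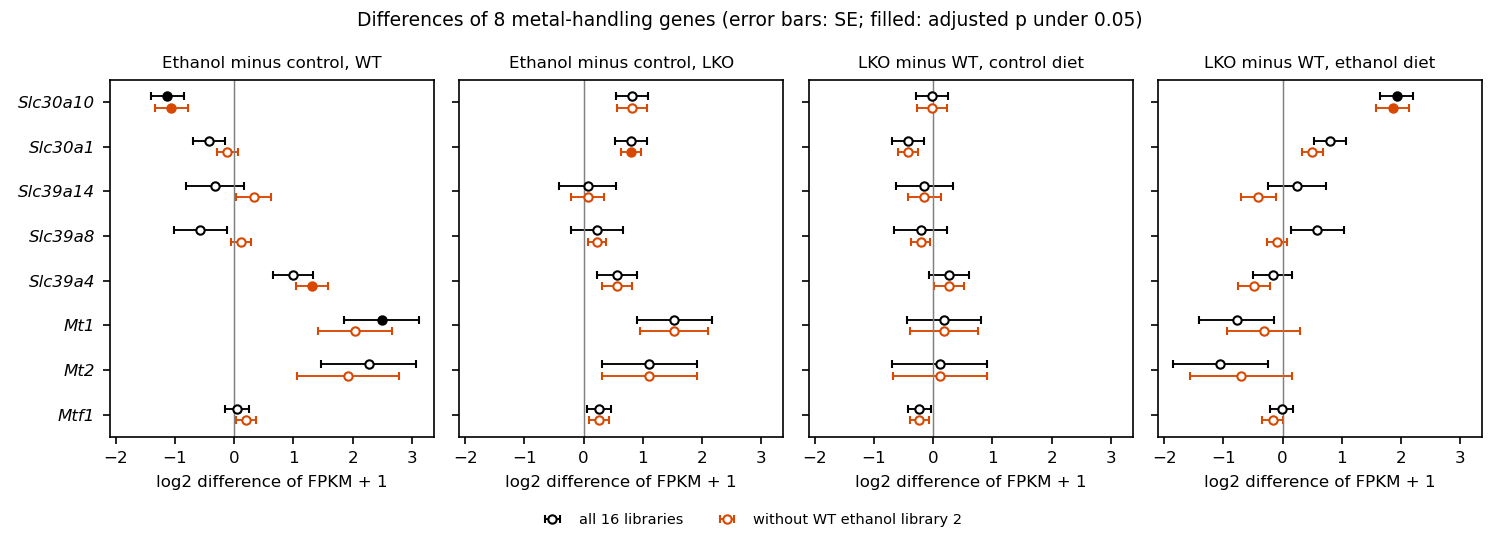
Differences in log2(FPKM + 1) for the 8 members in 4 comparisons, with the SE of the limma fit; black circles are all 16 libraries, orange circles leave out WT ethanol library 2, and filled circles have an adjusted p under 0.05. Slc30a10 lies at -1.13 in WT and 0.81 in LKO for diet, and at 1.93 for genotype on ethanol.

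Counted over the members, a difference was called at an adjusted p under 0.05 (limma, two-sided, Benjamini-Hochberg over 11298 genes). On ethanol against control in WT, 1 of 8 was called higher (Mt1) and 1 lower (Slc30a10), where 4.18% of all genes were called. In LKO 0 of 8 were called on ethanol against control, where 0.425% of all genes were called. On the control diet 0 of 8 were called between genotypes, where 0.00885% of all genes were called, which was Zfp36l1 alone. On ethanol 1 of 8 was called higher in LKO (Slc30a10), where 0.0797% of all genes were called. Averaged over genotypes 1 of 8 was called for diet (Mt1; 7.78% of all genes), and averaged over diets 0 of 8 for genotype (0.142% of all genes). At an unadjusted p under 0.05 (limma) stood 4 members for diet in WT (19.7% of all genes), 3 for diet in LKO (9.19%), 0 for genotype on the control diet (3.45%) and 2 for genotype on ethanol (11.9%). The same count was 2 for the difference of responses (3.20%), 3 for diet over genotypes (21.6%) and 1 for genotype over diets (10.4%). Since the members were chosen with these contrasts known, nothing is read from their counts against the shares.

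Groups that did not overlap were counted too. For diet in WT they were Mt1 and Mt2 (higher) and Slc30a10 (lower), where 10.1% of all genes had groups apart, and for diet in LKO Slc30a10 and Slc30a1 (higher), where 12.3% did. For genotype they were Slc30a1 (lower) on the control diet, where 9.25% did, and Slc30a10 (higher) on ethanol, where 2.69% did. Without WT ethanol library 2, the members called were Slc30a10 and Slc39a4 for diet in WT (9.48% of all genes), Slc30a1 for diet in LKO (3.62%) and Slc30a10 for genotype on ethanol (0.221%). In the averages they were Slc39a4 and Mt1 for diet (20.5%) and Slc30a10 for genotype (1.07%). The median log2 difference of the 8 members was -0.14 for diet in WT, 0.68 for diet in LKO, -0.08 for genotype on the control diet and 0.11 for genotype on ethanol, beside medians of -0.02, 0.06, -0.10 and -0.03 over all genes. Without WT ethanol library 2 the members' median turned to 0.26 for diet in WT and to -0.25 for genotype on ethanol, beside 0.17 and -0.23 over all genes.

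The other genes of metal handling are read beside the 4.18% of all genes called for diet in WT and the 7.78% called for diet over genotypes. Of the 8 other ZnT exporters 5 were kept and 0 called in any comparison (0 at an unadjusted p under 0.05, limma), and the gene with the largest mean diet difference was Slc30a4 (0.31, adjusted p = 0.490, limma), at 2.65 ± 0.464 FPKM in WT control and 3.33 ± 1.75 in WT ethanol livers. Of the 11 other ZIP importers 7 were kept and 0 called (3 at an unadjusted p under 0.05 in at least 1 comparison, limma), with Slc39a13, a Golgi-associated zinc transporter, at a mean diet difference of 0.56 (adjusted p = 0.0924, limma). The median difference for diet in LKO was 0.29 in the ZnT list and -0.07 in the ZIP list, beside 0.06 over all genes. For diet in WT it was -0.10 and -0.02, beside -0.02, with WT ethanol library 2 included. Without that library the all-gene median for diet in WT was 0.17, and the list medians are not given. The WT mean FPKM of each of the 5 kept ZnT genes was then higher on ethanol (Slc30a5, 12.54 to 14.98). So was that of each kept ZIP gene but Slc39a5 (1.743 to 1.39). The negative ZnT median in WT is therefore not read as a response opposite to LKO. Neither of the other metallothioneins, Mt3 and Mt4, passed the filter. Mt3, the metallothionein of the nervous system, was 25.0 FPKM (133 reads) in WT ethanol library 2 and at most 1.12 FPKM elsewhere, and Mt4 had at most 1 read in any library.

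Of 10 manganese and iron carriers and manganese enzymes 9 were kept, and 1 was called. This was Glul, the manganese-dependent glutamine synthetase of hepatocytes around the central vein, which fell on ethanol in WT from a mean of 409.9 FPKM (314 to 532) to 116 FPKM (50.3 to 173) (log2 difference -1.93, SE 0.45, adjusted p = 0.0235, limma). Its LKO difference was -0.72 (adjusted p = 0.721, limma), and its difference between the responses was 1.21 (adjusted p = 0.927, limma). Of 10 copper genes 8 were kept and 1 called: Atox1, a copper chaperone, rose in WT from 122 ± 38.9 to 460.1 ± 298 FPKM (1.74, SE 0.39, adjusted p = 0.0197, limma), with an LKO difference of 0.73 (adjusted p = 0.623, limma). Without WT ethanol library 2 the WT ethanol means were 124 FPKM for Glul and 323 FPKM for Atox1. Over both genotypes the diet differences were -1.32 for Glul (adjusted p = 0.0167, limma) and 1.24 for Atox1 (adjusted p = 0.0106, limma).

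Genes that respond to the other known inducers of metallothioneins were read beside Mt1 and Mt2. Of 6 glucocorticoid-responsive genes, all kept, 1 was called: Tsc22d3, a glucocorticoid-induced leucine zipper protein, fell over both genotypes (-1.41, SE 0.25, adjusted p = 0.00240, limma), with 51.3 and 21.6 FPKM in WT control and ethanol livers and 48.6 and 16.6 FPKM in LKO control and ethanol livers. The others of this list did not all follow it. Fkbp5 (0.58, adjusted p = 0.171, limma) and Sgk1 (0.50, adjusted p = 0.556, limma) were higher over both genotypes and not called. Per1, Zbtb16 and Errfi1 were lower and not called. Of 10 genes of the IL-6 and acute-phase response, all kept, 1 was called: Lcn2, an iron-siderophore binding protein of inflamed liver, rose in WT from 24.2 ± 20.8 to 538 ± 511 FPKM (4.22, SE 0.69, adjusted p = 0.00478, limma), or to 597 FPKM without WT ethanol library 2. Its LKO difference was 2.37 (adjusted p = 0.177, limma) and its mean over genotypes 3.30 (adjusted p = 0.000844, limma). The median diet difference over genotypes was -0.47 in the glucocorticoid list and -0.13 in the acute-phase list, beside 0.02 over all genes. For diet in WT alone they were -0.53 and 0.31, beside -0.02, and in LKO alone -0.30 and -0.10, beside 0.06. These list medians include WT ethanol library 2 and are not given without it. Over all 7 lists, the number of genes called for diet in WT was 3, it was 1 without WT control library 1, 2 or 4, and it was 5 without WT ethanol library 2.

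The kept protein-coding genes whose levels ran most like each member over the 16 libraries were found by Spearman rho on log2(FPKM + 1), as a description, since points share library, depth and composition. For Slc30a10 they included Mif4gd (0.77), and for Slc30a1 they were Slc16a1 (0.89) and Dmtf1 (0.83). For Slc39a14 they were Arnt (0.91) and Lpgat1 (0.85), for Slc39a8 Grpel2 (0.89) and Hyal2 (0.86), and for Slc39a4 Nle1 (0.95) and Myo1c (0.93). For Mtf1 they were Trio (0.96) and Nup98 (0.96). Outside the 8 members, Mt1 ran most like Pla2g12a (0.89) and Agt (0.87), and Mt2 most like Ak6 (0.86) and Pigf (0.83). For the metallothioneins this order rests on WT ethanol library 2: without it Pla2g12a ranked 10 and Agt 17 for Mt1, and Ak6 5 and Pigf 16 for Mt2. Without that library Mif4gd ranked 4 for Slc30a10, Dmtf1 3 for Slc30a1 and Lpgat1 3 for Slc39a14. Nle1 ranked 2 and Myo1c 5 for Slc39a4, and Trio 3 and Nup98 5 for Mtf1. Slc16a1, Arnt and Grpel2 ranked 1 for their members, and Hyal2 ranked 2.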

How the data were processed

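The authors deposited 1 table of FPKM values for 35275 Ensembl gene IDs in 16 libraries. Per the submitters' processing notes, fastp, STAR 2.6.1, HTSeq and DESeq2 were used and the build was mm10, with no order or role given. The annotation, gene lengths and strandedness are not given in the sources used here. Symbols came from GENCODE M21 (34490 IDs matched), and 10898 IDs were at 0 throughout.

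Each library was grouped by its treatment label. Replicate numbers follow record order, and no label states a pairing. Some control and ethanol libraries with the same replicate number have consecutive numbers in their titles. Whether these are pairs is not stated. Genes with an FPKM of at least 1 in at least 4 libraries (11298) were fitted as log2(FPKM + 1), a scale that understates changes of low genes, by group means in limma 3.58.1 (R 4.3.3, eBayes with trend, two-sided), with Benjamini-Hochberg adjustment over all kept genes and calls at an adjusted p under 0.05. FPKM steps gave whole reads: 100% of the values of 20520 genes (those detected in at least 4 libraries) lay within 0.1 of a whole read. These reads gave the depth and, with voom, an alternative added after the data were seen. The procedure was tested on simulated data.

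The members and lists were chosen with earlier results of these data known. Named were the 8 members, Zfp36l1, called genes of each list (or else the kept gene with the largest mean diet difference) and the 2 genes most like each member, of which 1 is not reported here. Other alternatives changed the pseudocount, filter, scaling, library weights and libraries used, or added a term for the unlabelled division of the libraries.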

Additional observations from a re-analysis of the deposited data

Results flagged for a closer look

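The difference between the diet responses of Slc30a10, LKO minus WT, was 1.94 on the log2 scale. It is listed because all ethanol libraries lay below the control libraries in WT and above them in LKO. The test of the difference itself gave an adjusted p of 0.812 (limma, over all genes).

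Slc39a8 was 0.0480 FPKM in WT ethanol library 2, far below the other 3 libraries of its group. The gap to the next value was 0.856 of the group's range. Chance alone gives such a gap in about 1 of 20 groups, and this library stood apart in other measures too.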

How the results depend on the processing

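No paired analysis was run because no label states a pairing, although some control and ethanol titles carry consecutive numbers. The division of the libraries seen in the data was fitted as a term, always without WT ethanol library 2, so that 2 choices changed together in each value given for this division term. The number of members called was 2 for diet in WT, 0 for diet in LKO, 0 for genotype on control diet, 1 for genotype on ethanol, 0 for the difference of responses, 1 for diet over genotypes and 0 for genotype over diets. For diet in WT, quantile normalization, library weights, the division term and voom, the last 2 both without WT ethanol library 2, gave 3. A pseudocount of 5 gave 1 for diet in WT and 2 for diet over genotypes, and no filter gave 0 for diet in WT. Quantile normalization and median-of-ratios scaling each gave 2 for diet over genotypes. Library weights gave 2 for diet in LKO, 3 for genotype on ethanol, 2 for the difference of responses, 4 for diet over genotypes and 1 for genotype over diets. The division term gave 1 for diet in LKO, 4 for diet over genotypes and 1 for genotype over diets. Voom on recovered reads without WT ethanol library 2, added after the data were seen, gave 1, 2 and 1 for the same. All genes called were 30.7% for genotype on ethanol with library weights, and for diet over genotypes 36.7% with library weights and 32.6% with the division term. Leaving out 1 library at a time gave 0 to 2 members for diet in WT, 0 to 1 for diet in LKO, 0 to 1 for genotype on ethanol, 1 to 2 for diet over genotypes and 0 to 1 for genotype over diets.

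Genes of the 7 lists called for diet in WT were 6 with quantile normalization, 5 with median-of-ratios scaling, 15 with library weights, 12 with the division term and 5 with voom, both without WT ethanol library 2, against 3; leaving out that library alone gave 5. For diet in LKO they were 1, 1, 2, 6 and 1 in the same order, against 0. For diet over genotypes they were 19 with library weights, 19 with the division term and 12 with that voom fit, against 4. With library weights they were also 19 for genotype on ethanol, 3 for the difference of responses and 19 for genotype over diets, against 0 each, and the division term gave 4 for the last. Leaving out 1 library gave 1 to 5 genes for diet in WT, 0 to 2 for diet in LKO, 0 to 1 for genotype on ethanol, 4 to 11 for diet over genotypes and 0 to 1 for genotype over diets. Calls over all genes rose too: for diet in WT from 4.18% to 8.35%, 6.48%, 38.4%, 19.7% and 8.85% in the order above (9.48% on leaving out that library alone), for diet in LKO from 0.425% to 0.938%, 0.929%, 7.69%, 10.7% and 3.83%, and for genotype over diets to 34.1% with library weights and 11.1% with the division term. The counts therefore say nothing particular to the lists, and the cause of the shifts was not tested.

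No called difference of a member changed its sign under the alternatives run. The median difference of all genes moved by 0.12 for genotype on the control diet under median-of-ratios scaling, by 0.11 on ethanol, and by 0.11 for the difference of responses under equal sums. Library weights moved it by 0.25 for diet in WT, -0.29 for genotype on ethanol and -0.29 for the difference of responses, and leaving out WT ethanol library 2 by 0.19, -0.20 and -0.21. In WT ethanol library 2 the value of Slc30a10 rested on 91 reads and that of Slc39a8 on 2 reads, which limits their precision there.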
